A study of Mus musculus with 3 samples.

Results

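The ADAMTS genes studied here are 10 members of a family of secreted zinc metalloproteinases, chosen by name: Adamts1, Adamts2, Adamts4, Adamts5, Adamts6, Adamts7, Adamts9, Adamts10, Adamts12 and Adamts15. They are 10 of the 56833 genes in the deposited table and 10 of its 19 genes for catalytic ADAMTS proteases. RNA came from mouse ankle synovium, from cells sorted for tdTomato and called telocytes by the labels. All 3 groups carried Efhd1CreER and the Ai9 reporter, so tdTomato marks cells in which the Efhd1-driven Cre had acted. The groups differed in the collagen-coated CytoSoft plate used for 24 h of culture, and they are called soft at 0.2 kPa, intermediate at 8 kPa and stiff at 64 kPa. Each stiffness had 1 library, so no difference has a replicate check, no p-value is given, and cultures cannot be told apart from stiffness levels. The number of animals behind each culture is not given in the sources used here.

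ADAMTS proteases are made as inactive precursors, cut by furin-type convertases, and held near the cell or in the matrix by their thrombospondin repeats. In joints they are known for cutting aggrecan, the proteoglycan that gives cartilage its resistance to compression, and versican, its relative in looser tissue such as synovium. Other members trim procollagens before fibril assembly, cut cartilage oligomeric matrix protein (COMP), or associate with fibrillin microfibrils. The inhibitor TIMP3 and the endocytic receptor LRP1 limit the activity of ADAMTS4 and ADAMTS5 outside the cell.

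The recovered reads summed to between 25487064 and 28081600 per library. The values below are normalized counts, which are reads divided by a size factor per library, and 1 read was worth 0.943 to 1.03 normalized counts. All 8 fibroblast markers were detected, and their sum went from 161757 normalized counts at 0.2 kPa to 196695 at 8 kPa and 246280 at 64 kPa. Col1a1 alone made up 78648, 110715 and 151834 of these sums in the same order. The median stiff to soft log2 ratio of the 8 markers was 0.19, and Pdgfra, Dcn and Lum were lower at 64 kPa, at -0.20, -0.44 and -0.36. All 12 macrophage markers also had reads in all 3 libraries, with sums of 29749 at 0.2 kPa, 36632 at 8 kPa and 63852 at 64 kPa. Endothelial markers summed to at most 86.1. The 6 mural cell markers summed to 2367 at 0.2 kPa, 3277 at 8 kPa and 3138 at 64 kPa. For the 6 chondrocyte and bone markers the sums were 718, 1108 and 1143 in the same order. Both sums were lowest in the soft library, as the ADAMTS sum was, but their single genes differed. Cspg4 alone made up 1642, 2496 and 2376 of the mural sums in that order. Its stiff to soft log2 ratio was 0.53 and that of Mcam 0.86, while Rgs5 and Notch3 stood at -0.08 and -0.05. Among the chondrocyte and bone markers Col2a1 stood at 1.46 and Sox9 at 0.05, and Sox9 was high in the intermediate library alone. Efhd1 itself had 10 reads at 0.2 kPa, 5 at 8 kPa and 3 at 64 kPa. Of the 6 telocyte markers listed, 4 had a mean of at least 50 normalized counts. Among them, Cd34 had at least 235 normalized counts and Pdgfra, also one of the fibroblast markers above, at least 5118. In bulk RNA, fewer cells of a type and less RNA per cell cannot be told apart, and the part of the macrophage, mural, chondrocyte and bone signal in the ADAMTS values was not tested.

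The summed reads of the family were higher on the stiffer plates, and 3 genes made up most of the difference. The 10 genes summed to 5324 normalized counts at 0.2 kPa, 5929 at 8 kPa and 7669 at 64 kPa. For that sum the stiff to soft log2 ratio was 0.53 (95% interval 0.48 to 0.58). The ranges in parentheses here and below are exact 95% intervals on reads that cover counting error only. In the values as deposited, Adamts5 accounted for 47.9% of the summed difference between stiff and soft, Adamts2 for 34.3% and Adamts1 for 13.3%. The sum and these shares are not corrected for length and GC content. Under that correction the stiff to soft log2 ratio of Adamts2 went from 0.74 to 0.21. Those of Adamts5 and Adamts1 went from 0.81 to 0.69 and from 0.46 to 0.39. Adamts4, the other classical aggrecanase beside Adamts5, was lower in the stiff library, and Adamts7 and Adamts10 were close to level between soft and stiff as deposited and lower, at -0.44 and -0.28, once corrected for length and GC content.

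Upstream sequence was printed for the genes whose values were ordered soft, intermediate, stiff from low to high and that the RefSeq promoter table (GRCm38.p6) holds. It holds 4 of the 10 genes, which are Adamts1, Adamts2, Adamts9 and Adamts12. Adamts4, Adamts5, Adamts6, Adamts7, Adamts10 and Adamts15 had no entry. Each RefSeq window of 300 bases was found unchanged at 1 place in GRCm39. The stretch before the RefSeq start or the GENCODE gene start, whichever lies further upstream, is shown 5′ to 3′, at chr16:85600010-85600251 (minus strand) for Adamts1, chr11:50492662-50492786 (plus) for Adamts2, chr6:92920521-92920765 (minus) for Adamts9 and chr15:11064609-11064858 (plus) for Adamts12, where the GENCODE gene start lies 17 bases downstream of the RefSeq start. Capitals mark the letters GGGCGG on either strand, the GC box bound by Sp1, and TATAAA, the TATA box.
Adamts1: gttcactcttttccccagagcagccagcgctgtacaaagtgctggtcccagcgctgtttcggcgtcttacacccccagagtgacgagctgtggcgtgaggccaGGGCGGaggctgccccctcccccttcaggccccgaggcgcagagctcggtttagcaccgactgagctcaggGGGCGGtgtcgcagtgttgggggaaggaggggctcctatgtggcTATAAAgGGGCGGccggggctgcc
Adamts2: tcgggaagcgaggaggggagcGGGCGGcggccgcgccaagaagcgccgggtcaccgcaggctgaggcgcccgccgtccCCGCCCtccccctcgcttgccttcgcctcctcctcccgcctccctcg
Adamts9: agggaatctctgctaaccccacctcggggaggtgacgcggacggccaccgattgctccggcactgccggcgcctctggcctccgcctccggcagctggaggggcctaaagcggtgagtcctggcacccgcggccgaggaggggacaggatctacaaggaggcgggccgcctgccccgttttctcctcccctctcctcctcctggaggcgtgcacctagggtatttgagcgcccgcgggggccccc
Adamts12: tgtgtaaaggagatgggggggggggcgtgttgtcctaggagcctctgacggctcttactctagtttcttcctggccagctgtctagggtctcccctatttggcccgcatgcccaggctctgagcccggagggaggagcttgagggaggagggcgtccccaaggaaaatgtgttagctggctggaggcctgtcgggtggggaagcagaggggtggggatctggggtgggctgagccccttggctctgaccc

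These upstream stretches were rich in G and C, from 63.2% in Adamts12 to 78.4% in Adamts2. GGGCGG occurred on either strand in the full windows of Adamts1, Adamts2 and Adamts9, with 3, 5 and 1 matches, and in 35.7% of 32851 RefSeq windows of the same length. TATAAA, searched on both strands, was present in Adamts1 alone of the 4, beginning 32 bases before the RefSeq start and separated by 1 base from a GC box, with no overlap of the letters. It occurred in 13.6% of all windows. The letters CATTCC, the core bound by TEAD factors (14.7% of all windows), TGANTCA, the site of AP-1 (7.81%), and the CArG box of serum response factor (1.63%) were searched on both strands and were in none of the 4 windows. A match is a stretch of letters in this window and says nothing on binding.

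**Figure D1:**
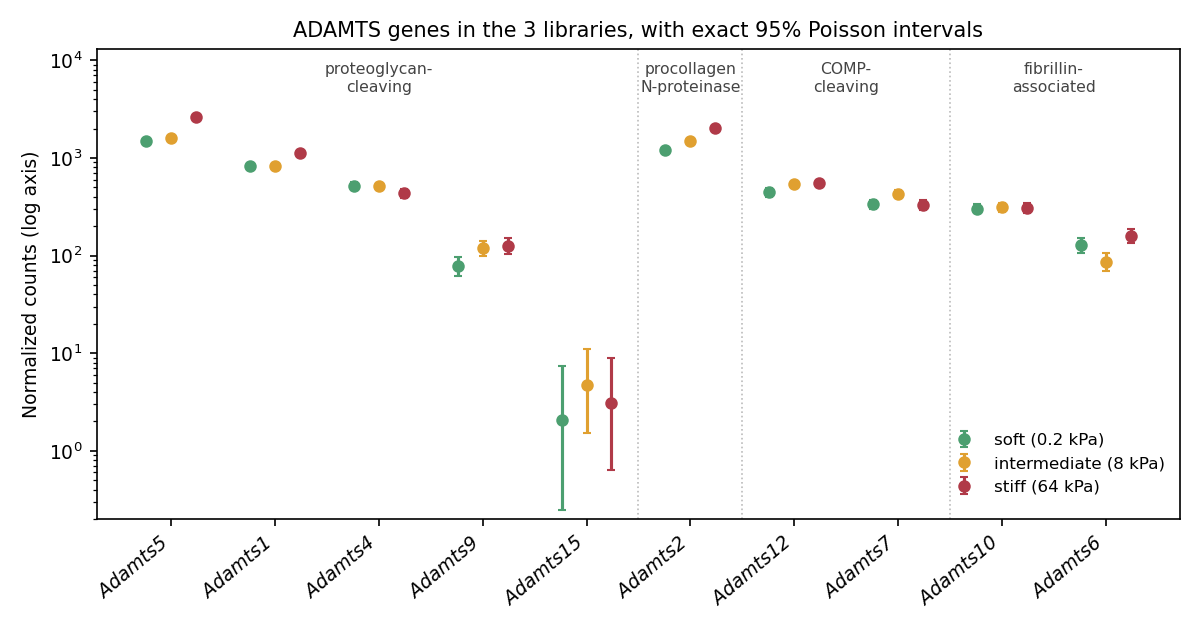
Normalized counts of the 10 ADAMTS genes (log axis) in the soft, intermediate and stiff library, grouped by the substrate each is known for. Points are single libraries and bars are exact 95% Poisson intervals. Adamts5 and Adamts2 stand highest in the stiff library, at 2609 and 2010.0, and Adamts15 has 5 reads or fewer everywhere.

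The proteoglycan-cleaving genes differed among themselves. Adamts5, whose product is a main aggrecanase of mouse cartilage, had 1487 normalized counts at 0.2 kPa, 1611 at 8 kPa and 2609 at 64 kPa. The stiff library stood apart from the other two, which were close to each other. Stiff to soft, the log2 ratio was 0.81 (0.72 to 0.91), a fold of 1.75, and 94.6% of the 11873 genes with a mean of at least 50 had a lower ratio. The step from soft to intermediate was 0.12 (0.01 to 0.22) and that from intermediate to stiff 0.70 (0.61 to 0.78). Corrected for length and GC content, the first of these was 0.0005, while the stiff to soft ratio was 0.69, just below its interval. Adamts5 lies on the minus strand of GRCm39 at chr16:85653061-85698716 and has 8 exons.

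Adamts1, a protease of versican and aggrecan, is the neighbour of Adamts5 on chromosome 16, with 53051 bases between the annotated genes, and lies on the same strand. It had 826 normalized counts at 0.2 kPa, 831 at 8 kPa and 1137 at 64 kPa, so the stiff library alone was high. The stiff to soft log2 ratio was 0.46 (0.33 to 0.59). The soft to intermediate step, at 0.01 (-0.13 to 0.15), was not detectable at this depth, and its sign turned under scaling to total reads or to the upper quartile, and under the correction. The ratio of Adamts5 to Adamts1 reads went from 1.80 in the soft to 2.29 in the stiff library, a log2 change of 0.35 (0.19 to 0.51). A ratio of 2 genes within a library does not depend on how the libraries are scaled.

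Adamts4, an aggrecanase known for its response to inflammatory cytokines, went the other way. It had 519 normalized counts at 0.2 kPa, 512 at 8 kPa and 434 at 64 kPa, and the soft and intermediate values were close together. Its log2 ratio was -0.26 (-0.45 to -0.07) between stiff and soft, -0.02 (-0.20 to 0.16) between intermediate and soft and -0.24 (-0.43 to -0.05) between stiff and intermediate. The corrected stiff to soft value was lower, at -0.45. Adamts4 was the only one of 9 members with a mean of at least 50 whose values were ordered downward from soft to stiff, an order held by 25.6% of all such genes. Adamts5 had 2.87 reads for each read of Adamts4 at 0.2 kPa, 3.15 at 8 kPa and 6.01 at 64 kPa. The log2 change of that ratio from soft to stiff was 1.07 (0.86 to 1.28). Adamts4 lies on the plus strand at chr1:171077986-171089841 and has 9 exons.

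Adamts9, a large versican protease with 40 exons, was low. It had 77.9 normalized counts at 0.2 kPa, 119.7 at 8 kPa and 126 at 64 kPa, so the soft library was low and the other two were alike. The log2 ratio was 0.69 (0.27 to 1.13) between stiff and soft, 0.61 (0.20 to 1.05) between intermediate and soft and 0.07 (-0.29 to 0.44) between stiff and intermediate. After the correction the first was 0.37, the second 0.40 and the last -0.03. Most of its difference lay in the softer step, and most of that of Adamts5 and Adamts1 in the stiffer one. The opposite-strand transcript A730049H05Rik shares 1389 of its exon bases and had at most 6.15 normalized counts. Adamts15, also a proteoglycan protease, had 2 reads at 0.2 kPa, 5 at 8 kPa and 3 at 64 kPa, which is too few for any direction.

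Adamts2 removes the amino-terminal propeptide of fibrillar procollagens. It had 1205 normalized counts at 0.2 kPa, 1488 at 8 kPa and 2010.0 at 64 kPa, with each library above the softer one. The log2 ratio was 0.74 (0.63 to 0.84) between stiff and soft, and the 2 steps were 0.30 (0.19 to 0.41) and 0.43 (0.34 to 0.53). Corrected for length and GC content, the stiff to soft value was 0.21 and the soft to intermediate step turned to -0.01. Adamts2 lies on the plus strand at chr11:50492787-50698400 and has 22 exons. The other procollagen N-proteinases were far lower: Adamts14 had 51.3 normalized counts at 0.2 kPa, 39.6 at 8 kPa and 62.6 at 64 kPa, and Adamts3 had at most 18.9. In the stiff library Adamts2 had 32.1 reads for each read of Adamts14.

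The pair that cuts COMP had unlike profiles. Adamts12 had 443 normalized counts at 0.2 kPa, 538 at 8 kPa and 553 at 64 kPa, with the soft library low. Its log2 ratio was 0.32 (0.13 to 0.51) between stiff and soft and 0.28 (0.10 to 0.47) between intermediate and soft, and the corrected values were 0.16 and 0.15. Adamts7 had 334 at 0.2 kPa, 425 at 8 kPa and 329 at 64 kPa, so only the intermediate library was high in the values as deposited. It was higher by 0.35 (0.14 to 0.56) in the intermediate than in the soft library, and the stiff to intermediate log2 ratio was -0.37 (-0.58 to -0.16). Between stiff and soft Adamts7 stood at -0.02 (-0.25 to 0.20), and no difference was detectable. Corrected for length and GC content, Adamts7 stood at 0.12 between intermediate and soft, at -0.44 between stiff and soft and at -0.56 between stiff and intermediate, so that the stiff library was the one apart. The ratio of Adamts12 to Adamts7 reads was 1.33 at 0.2 kPa and 1.68 at 64 kPa, a log2 change of 0.34 (0.05 to 0.64) that was 0.59 when both genes were corrected for length and GC content. Adamts7 shares 122 exon bases with Tbc1d2b on the opposite strand, which had 4699 normalized counts at 0.2 kPa, 4913 at 8 kPa and 3374 at 64 kPa, and the part of those reads was not tested. The strand setting of the counting is not given in the sources used here.

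The fibrillin-associated pair also split. Adamts10 was close to level, with 303 normalized counts at 0.2 kPa, 312 at 8 kPa and 309 at 64 kPa. Its stiff to soft log2 ratio was 0.02 (-0.21 to 0.26), and its sign turned under scaling to total reads or to the upper quartile. Corrected for length and GC content it was -0.28, below that interval. Adamts6 had 127 at 0.2 kPa, 86.7 at 8 kPa and 159 at 64 kPa, so the intermediate library was the lowest. Its log2 ratio was -0.55 (-0.96 to -0.15) between intermediate and soft, and 0.463% of all genes tested had a lower one. Between stiff and intermediate it was 0.87 (0.49 to 1.26), the highest of the 9 members in that comparison. Adamts7 and Adamts6 were both out of order with stiffness in the deposited values, in opposite senses. For Adamts6 the intermediate library was still the low one after the correction, at -0.56 against soft, and for Adamts7 the stiff library then stood apart.

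**Figure D2:**
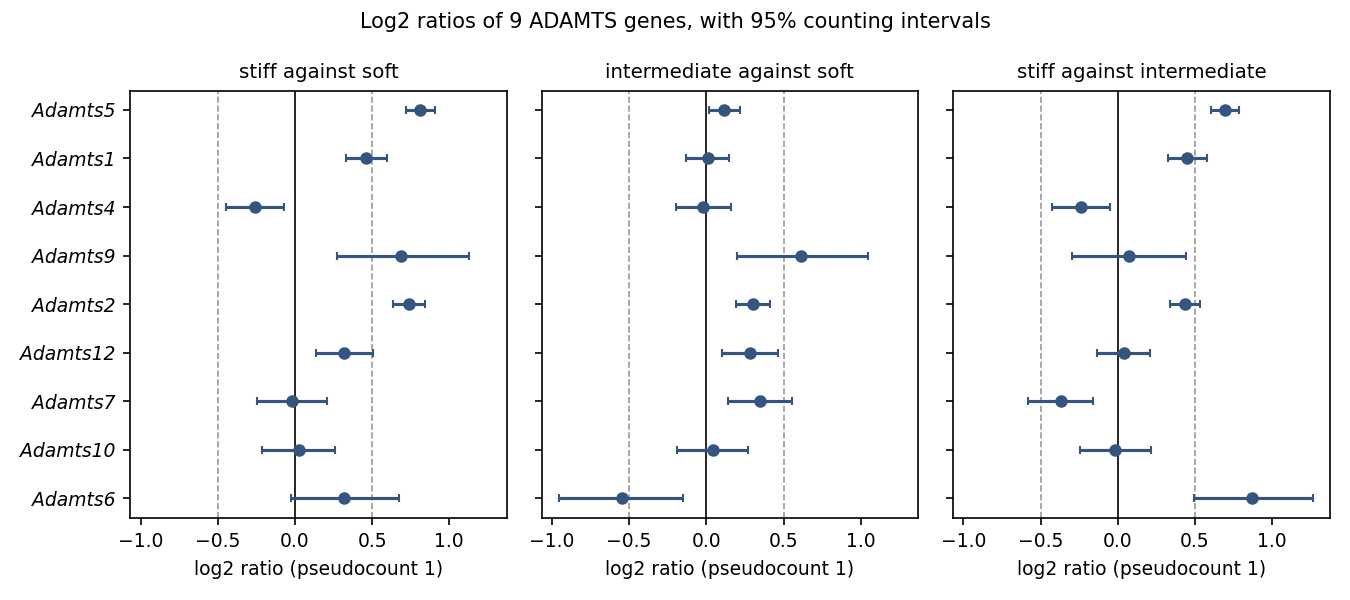
Log2 ratios (x axis, pseudocount 1) of the 9 members with a mean of at least 50 in the 3 comparisons. Points are ratios of 1 library to another, bars are 95% counting intervals and dashed lines mark 0.5 in each direction. Adamts5, Adamts2 and Adamts9 lie past 0.5 between stiff and soft, and Adamts6 lies on opposite sides of 0 in the 2 steps.

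Counted over the family, 9 of the 10 genes had a mean of at least 50 normalized counts, Adamts15 being the exception. Of these 9, 3 were higher in the stiff than in the soft library by a log2 ratio of at least 0.5 (Adamts2, Adamts5 and Adamts9), against 11.8% of all 11873 such genes. None was lower by as much, against 3.77%, and none reached 1 in either direction, against 3.22% higher and 0.387% lower. The median log2 ratio of the 9 was 0.32, and that of all genes was 0.0049. After the length and GC correction the median of the 9 was 0.21 and Adamts5 alone was past 0.5, against 7.73% higher and 4.09% lower among the 11630 genes with a corrected value. Between intermediate and soft, Adamts9 was higher by at least 0.5 (3.94% of all genes) and Adamts6 lower (0.657%), and the median was 0.12 against 0.012. After the correction Adamts6 alone was past 0.5 (0.774% of all genes lower and 2.14% higher), Adamts9 stood at 0.40 and the median was -0.013, with 4 of the 9 higher and 5 lower. None reached 1 there, against 0.16% higher and 0.00842% lower. Between stiff and intermediate, Adamts5 and Adamts6 were higher (5.42%) and none was lower (3.42%), with a median of 0.07 against 0.0061, and none reached 1, against 0.825% higher and 0.421% lower. The corrected median was 0.019, with Adamts5 and Adamts6 past 0.5 (4.66% of all genes) and Adamts7 lower by as much (3.31%). At a log2 ratio of 0.25 in either direction, 7 of the 9 were past it between stiff and soft against 38.9% of all genes, 5 between intermediate and soft against 18.3% and 5 between stiff and intermediate against 28.7%. The comparisons share libraries and are given side by side only. Values were ordered upward from soft to stiff for 5 of the 9 (Adamts1, Adamts2, Adamts5, Adamts9 and Adamts12), an order held by 30.2% of all genes. Adamts1 left this order under scaling to total reads or to the upper quartile. After the length and GC correction Adamts1, Adamts2 and Adamts9 left it. Adamts1 and Adamts2 then stood at -0.04 and -0.01 between intermediate and soft, and Adamts9 at -0.03 between stiff and intermediate. The share of all genes in this order after the correction was not computed.

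Levels of different genes were compared per kb of merged exons. In the stiff library Adamts5 led with 239 normalized counts per kb (230 to 248), above Adamts2 with 212 (203 to 222) and Adamts1 with 208 (196 to 220). The intervals of Adamts2 and Adamts1 overlapped each other and not that of Adamts5. In the soft library Adamts1 led with 151 (141 to 162), and its interval overlapped that of Adamts5, at 136 (129 to 143), which overlapped that of Adamts2, at 127 (120 to 135). In the intermediate library the intervals of these 3 genes overlapped, at 147 to 157 per kb. Adamts4 came next in all 3 libraries, at 80.4 at 0.2 kPa and 67.3 at 64 kPa. Adamts7 and Adamts12 followed. In the stiff library, at 51.9 and 50.6, their intervals overlapped. Adamts10 and Adamts6 were at 23.5 and 20.4 there, also with overlapping intervals, and Adamts9 and Adamts15 were last at 8.36 and 0.294. The order depends on the length used. With the canonical transcript length Adamts2 led in the stiff library, at 273 per kb against 242 for Adamts5, and Adamts5 was the third in the soft library, at 138 against 164 for both Adamts1 and Adamts2. For Adamts10 the merged exons span 13125 bases and the canonical transcript 4159, which gives 74.2 per kb in the stiff library.

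**Figure D3:**
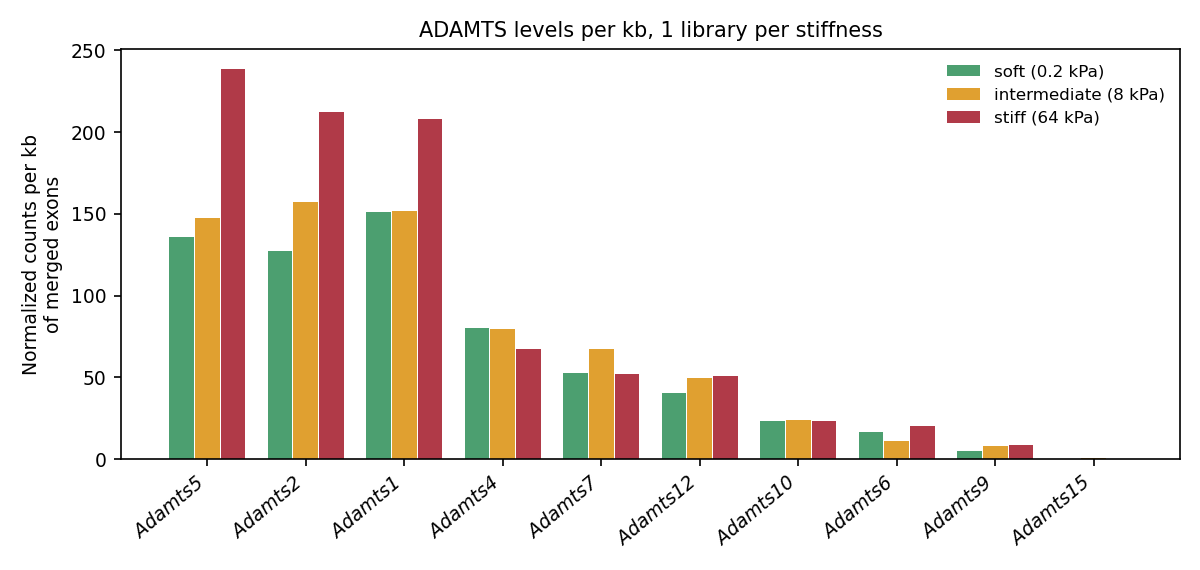
Normalized counts per kb of merged exons (y axis from 0) for the 10 ADAMTS genes in each library, ordered by the stiff library. Bars are single libraries. Adamts5, Adamts2 and Adamts1 are the highest 3 in every library, and Adamts5 moves from the second place in the soft to the first in the stiff library. With the canonical transcript length it moves from the third to the second, behind Adamts2.

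As a share of the reads of the 10 genes, Adamts5 took 27.9% at 0.2 kPa, 27.2% at 8 kPa and 34.0% at 64 kPa. The 95% Clopper-Pearson intervals were 26.7% to 29.2% at 0.2 kPa and 32.9% to 35.1% at 64 kPa, on 5193 and 7478 reads. Adamts4 went from 9.74% in the soft to 5.66% in the stiff library, and Adamts7 from 6.28% to 4.29%. Adamts2 had 22.6% at 0.2 kPa and 26.2% at 64 kPa. Adamts10 went from 5.70% to 4.03% and Adamts12 from 8.32% to 7.21%. These shares are not corrected for length and GC content, under which the ratio of Adamts2 equalled the median of the 9 members.

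The members differ in transcript length and GC content, and over all genes the ratios moved with both. A local fit of the stiff to soft ratio on length and GC content reached 1.25 for the gene where it was highest. Among the 9 members the fit went from -0.03 for Adamts6 to 0.53 for Adamts2, and it was subtracted as an alternative. Adamts5 has a canonical transcript of 10791 bases with 43.7% GC. Its stiff to soft log2 ratio went from 0.81 to 0.69, just below its counting interval of 0.72 to 0.91. For Adamts2, with 7358 bases and 54.5% GC, the corrected ratio was 0.21 where it had been 0.74. Adamts1 stood at 0.39 and Adamts6 at 0.35. Adamts4, Adamts7 and Adamts10, the 3 members richest in GC, were the ones below 0. Between stiff and intermediate the corrected values were 0.91 for Adamts6 and 0.70 for Adamts5.

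**Figure D4:**
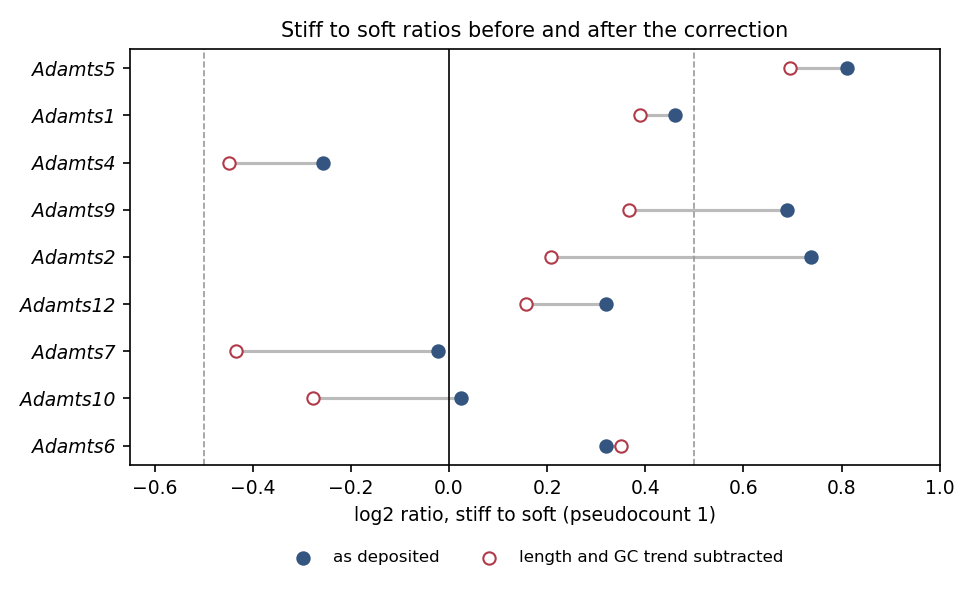
Stiff to soft log2 ratios of 9 ADAMTS genes as deposited (filled) and once the length and GC trend was taken off (open). Dashed lines mark 0.5 in each direction. Adamts2 moves most, from 0.74 to 0.21, and Adamts5 stays past 0.5 at 0.69.

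The rest of the family was little expressed. The 10 genes held 98.7% to 99.0% of the reads of the 19 catalytic ADAMTS genes. Of the other 9, Adamts13, Adamts16 and Adamts19 had no read, which allows up to 3 reads or 3.08 normalized counts in the soft and stiff and 2.83 in the intermediate library. ADAMTS-like proteins share the family's ancillary domains, lack the protease domain and bind matrix such as fibrillin microfibrils. Of the 7 ADAMTS-like genes in the deposited table, 4 had a mean of at least 50. Of these, 3 were higher in the stiff than in the soft library by at least 0.5 (11.8% of all genes) and 1 was not, with a median of 0.67. Adamtsl4 had 892 normalized counts at 0.2 kPa, 1089 at 8 kPa and 1724 at 64 kPa (0.95, 0.83 to 1.07). Adamtsl3 stood at 0.70, Adamtsl1 at 0.65 and Adamtsl5 at 0.14. After the length and GC correction Adamtsl4 alone of them was past 0.5 (7.73% of all genes), at 0.62. Adamtsl3 then stood at 0.38, Adamtsl1 at 0.09 and Adamtsl5 at -0.21.

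Proteins that mature, inhibit or clear the proteases were counted in the same way. Of 16 such genes whose mean reached 50, 5 were higher in the stiff than in the soft library by at least 0.5 (11.8% of all genes) and none was lower (3.77%), with a median of 0.09. After the length and GC correction 2 of the 16 were higher by as much, against 7.73% of all genes. Lrp1, the clearance receptor, had 5489 normalized counts at 0.2 kPa, 9309 at 8 kPa and 12927 at 64 kPa, a log2 ratio of 1.24 that was 0.17 after the length and GC correction. Timp3, the inhibitor of ADAMTS4 and ADAMTS5, had 14496, 13446 and 22164 in that order (0.61), and it was high in the stiff library alone, as Adamts5 was. Furin stood at 0.61 and Pcsk6, a related convertase, at 0.65, and after the length and GC correction they were at 0.13 and 0.41, with Timp3 still at 0.61. The lowest were Tll1, a procollagen C-proteinase, at -0.37 and Timp1, an inhibitor of matrix metalloproteinases, at -0.25. After the length and GC correction Tll1 was at -0.40 and Timp1 at -0.11, and Pcsk5, at -0.34, was then the second lowest.

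Known substrates differed widely in level. Of 20 listed substrate genes, 15 had a mean of at least 50. Acan, Fbn2, Hapln3 and Bcan were below it, and Ncan had no read. Of 15 proteoglycan and other substrate genes whose mean reached 50, 3 were higher by at least 0.5 (Fn1, Nid2 and Fbn1; 11.8% of all genes) and 1 was lower (Hapln1; 3.77%), with a median of 0.31. Counts this small, 3 and 1 of 15, are near the shares over all genes. The highest were Fn1, which encodes fibronectin, at 1.08 and Nid2, a nidogen of basement membranes, at 0.56. Fbn1, which encodes fibrillin, stood at 0.55. After the length and GC correction none of the 15 was higher by 0.5 (7.73% of all genes), with Fn1 just under it at 0.496, Nid2 at 0.32 and Fbn1 at -0.19, and Hapln1 alone was still lower (4.09%), at -0.88. The lowest were Hapln1, the link protein that holds aggrecan and versican on hyaluronan, at -1.04 and Dcn, which encodes decorin, at -0.44 (corrected -0.28). Vcan had 9489 normalized counts at 0.2 kPa, 11142 at 8 kPa and 11139 at 64 kPa (0.23, corrected 0.03), while Acan, which encodes aggrecan, had 22, 53 and 64 reads. Comp stood at 0.26 and at 0.17 when corrected. Of 6 procollagen genes and Lox, 4 were higher by at least 0.5 (11.8% of all genes) and none was lower (3.77%), with a median of 0.64. Col2a1 stood at 1.46 and Col5a1 at 1.30, and the lowest were Col3a1 at 0.26 and Col1a2 at 0.28. After the length and GC correction these were 0.87, 0.53, 0.06 and -0.02, in the same order, and 2 of the 7 were higher by at least 0.5 (7.73% of all genes).

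Inflammatory inducers of aggrecanases were mixed. Of 13 genes, 4 were higher in the stiff than in the soft library by at least 0.5 (11.8% of all genes) and none was lower (3.77%), with a median of 0.41. Osm, a cytokine of the interleukin 6 family made by myeloid cells, stood at 1.55 and Tnf at 1.03, beside a median of 1.25 for the 12 macrophage markers. The part of macrophage RNA in these values was not tested. Il6 was at -0.32 (-0.46 to -0.18) and Il1b at -0.27 (-0.66 to 0.10), and the corrected values were -0.08 and -0.14. After the length and GC correction 4 of the 13 were again higher by at least 0.5 (7.73% of all genes) and none was lower (4.09%). Il1a, at 0.59, was then past 0.5, and Rela, at 0.38, no longer was. Between intermediate and soft, where Adamts4 had -0.02, Il1a was at 0.995, Il1b at 0.39 and Il6 at 0.23. Between stiff and intermediate, where Adamts4 had -0.24, 3 of the 13 were lower by at least 0.5 (3.42% of all genes), with Il1b at -0.67, Il1a at -0.56 and Il6 at -0.55, and 2 were higher (5.42%), Osm and Tnf. After the length and GC correction 1 of the 13 was lower by as much there (3.31% of all genes).

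**Figure D5:**
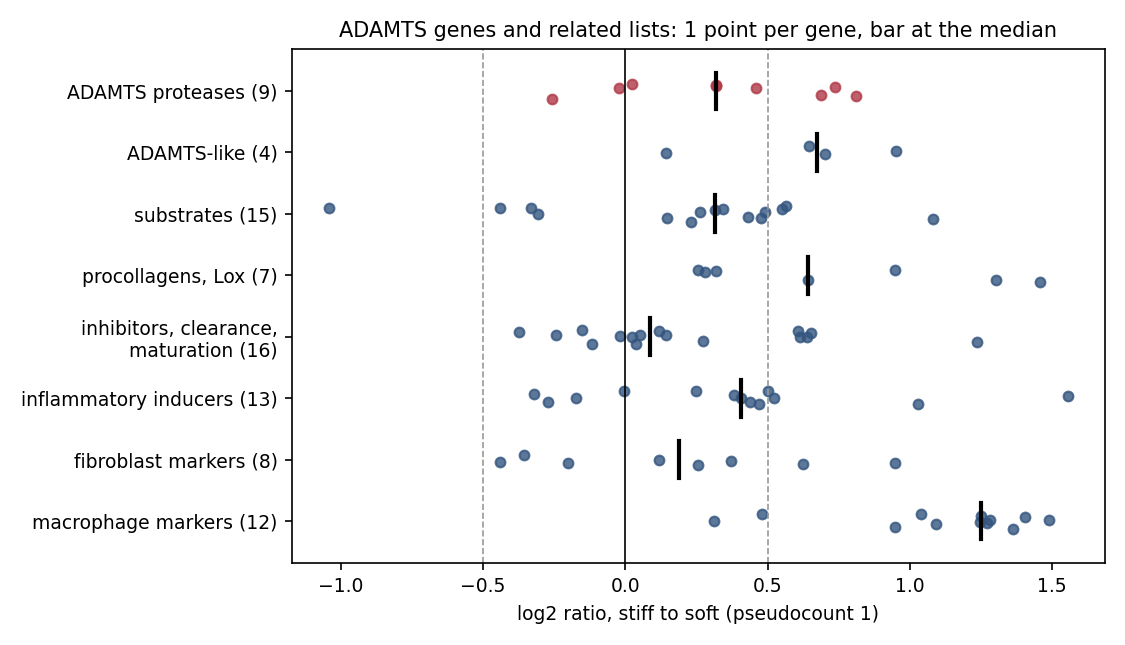
Stiff to soft log2 ratios (x axis) of single genes with a mean of at least 50 in the ADAMTS family and in related lists. Bars mark medians and numbers in parentheses count genes. The ADAMTS median of 0.32 lies beside 0.31 for substrates and below 1.25 for macrophage markers.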

How the data were processed

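RNA of 3 cultures, 1 per stiffness, was sequenced as stranded poly(A) libraries per the labels' protocols. Per the submitters' processing notes, bcl2fastq 2.20.0, STAR 2.7.9a, featureCounts of Subread 2.0.1 and DESeq2 1.34.0 were used with the build GRCm39; strand setting and annotation are not given in the sources used here. The signal values deposited by the authors are counts of reads per gene over 1 size factor for each library. The 3 deposited files were identical, and columns were assigned to samples by title. Division by a column's smallest positive value gave whole reads for 100.0% of values (tolerance 0.01 reads). A test on them needs replicates and was not made.

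Log2 ratios used a pseudocount of 1 and understate the change of low genes. Genes whose mean reached 50 normalized counts were counted past a log2 ratio of 0.5 or 1. Intervals are exact 95% Clopper-Pearson intervals of reads for ratios and shares, exact Poisson for levels and exact conditional for ratios of 2 genes. They cover counting error only. Coordinates, exons, lengths and GC content are from GENCODE vM39 on GRCm39, matched by symbol. A result on a further gene overlap, beside those of Adamts7 and Adamts9, is not reported here. The length and GC trend was fitted locally and linearly, with robust weights, over the 300 nearest of 11630 genes. Named genes were the 10 members, the 2 highest and 2 lowest of each related list, and partners of members. The members, lists and pairs were chosen with earlier results of these data known. Alternatives were pseudocounts of 0.1 and 10, 3 other scalings (total reads, upper quartile, and TMM from edgeR 4.0.16), other thresholds and minimum means, the trend correction and the canonical transcript length. The steps were tested on simulated data. Computations ran in R 4.3.3 and Python 3.11.15 with scipy 1.17.1, numpy 2.4.6, pandas 2.3.3 and matplotlib 3.10.9.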

Additional observations from a re-analysis of the deposited data

How the results depend on the processing

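No paired analysis was possible because each stiffness level has 1 library. For the same reason no replicate was left out. Under both pseudocounts and the 3 scalings, all 150 member ratios stayed inside their counting intervals, and the counts of members past 0.5 stayed within 1.5 times those reported. The scalings shifted the stiff to soft median of all genes by at most -0.058.

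Subtraction of the length and GC trend moved 9 of 30 member ratios out of their intervals, that of Adamts5 between stiff and soft among them. It left 1 member past 0.5 between stiff and soft and 1 between intermediate and soft, and moved the intermediate to soft median of the members to -0.013. The counts past 0.5 depend on the threshold by construction. At 1 they were 0 in each of the 3 comparisons, and at 0.25 they were 7 between stiff and soft (6 higher and 1 lower), with 5 for intermediate to soft and 5 for stiff to intermediate, against 38.9%, 18.3% and 28.7% of all genes in that order. With a mean of at least 200, which removes Adamts6 and Adamts9, they were 0 for intermediate to soft and 1 for stiff to intermediate. With the canonical transcript length, 5 of 10 members kept their rank per kb at 0.2 kPa, 6 at 8 kPa and 6 at 64 kPa. Depth limits Adamts15 and, with 76 to 155 reads, Adamts6 and Adamts9.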

Other observations

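Ratios of reads between a protease and its partner need no scaling of libraries, and they are given here as values with exact counting intervals. They still move with the length and GC content of the 2 genes, so each log2 change from soft to stiff is followed by its value after the length and GC correction. The pairs were chosen after values had been seen. Timp3 had 9.75 reads for each read of Adamts5 at 0.2 kPa, 8.35 at 8 kPa and 8.50 at 64 kPa, a log2 change of -0.20 from soft to stiff (-0.30 to -0.10; corrected -0.09). For Adamts4 the same inhibitor had 27.9, 26.3 and 51.1 reads per read, a log2 change of 0.87 (0.68 to 1.06; corrected 1.06). Reads of the inhibitor per read of Adamts4 were thus highest in the stiff library, while for Adamts5 the intermediate and stiff values were close to each other. Lrp1 had 3.69 reads per read of Adamts5 at 0.2 kPa, 5.78 at 8 kPa and 4.96 at 64 kPa. Its log2 change of 0.42 from soft to stiff (0.32 to 0.53) turned to -0.53 after the correction.

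Vcan had 6.38 reads per read of Adamts5 at 0.2 kPa, 6.92 at 8 kPa and 4.27 at 64 kPa, a log2 change of -0.58 from soft to stiff (-0.68 to -0.48; corrected -0.67). Col1a1 had 65.3 reads per read of Adamts2 at 0.2 kPa and 75.5 at 64 kPa, a log2 change of 0.21 (0.10 to 0.32; corrected 0.17). For Col3a1 the ratio went from 28.8 to 20.6, a log2 change of -0.48 (-0.59 to -0.38; corrected -0.15). Adamts2 thus lay between the 2 collagens in its difference. Comp had 69.4 reads per read of Adamts12 at 0.2 kPa and 66.7 at 64 kPa, and the log2 change of -0.06 (-0.25 to 0.13; corrected 0.02) was not detectable at this depth.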
